A study of Mus musculus with 8 samples.

Results

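Cdkn2a, Cdkn2b, Mtap, Trp53, Smad4 and Rb1 were followed through 8 RNA-sequencing libraries of cultured mouse pancreatic ductal adenocarcinoma cells. They are 6 of the 49315 gene identifiers in the deposited expression table. The genes were chosen by name: Cdkn2a, Trp53, Smad4 and Rb1 are tumour suppressor genes altered in pancreatic cancer or in the same pathways, and Cdkn2b and Mtap are the protein-coding neighbours of Cdkn2a on chromosome 4. This set was selected on an earlier look at the same libraries, in which Cdkn2a was low in line 6694c2. Differences in the level of these 6 genes between lines are therefore given as a description, with no test. The genes were not chosen on the comparison of knockout with wild type, which was tested, though earlier results of these data were known.

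The 4 knockout (KO) libraries came from the lines 6694c2, 2838c3, 6499c4 and 6419c5 after loss of C1galt1c1, and the 4 wild-type (WT) libraries from the same lines with C1galt1c1 intact. C1galt1c1, also called Cosmc, encodes the chaperone of the core 1 O-glycan synthase, whose loss exposes the short Tn O-glycan on proteins. All cells grew in high-glucose medium with serum and were collected at like confluence, per the labels and the design text. Each line gave 1 library per genotype, and a difference within 1 line has no replicate check. As background that the labels do not give, tumour cell clones with these names come from KPCY mice, in which a pancreatic Cre alters Trp53. The labels do not say whether a KO culture was 1 clone or a pool.

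Cdkn2a makes a pair of unrelated proteins from separate first exons that share a second exon. Ink4a blocks the kinases Cdk4 and Cdk6, which keeps the retinoblastoma protein Rb1 active and holds cells before DNA replication, while Arf blocks Mdm2, the ubiquitin ligase that removes the p53 protein. Cdkn2b encodes Ink4b, a sister inhibitor of Cdk4 and Cdk6, and Mtap encodes the phosphorylase that recycles methylthioadenosine, the by-product of polyamine synthesis, towards methionine. In human pancreatic cancer the CDKN2A locus is often deleted, and the deletion may take CDKN2B and MTAP with it. Trp53 encodes p53, the DNA damage-responsive transcription factor, and Smad4 the shared transcription factor of TGF-beta and BMP signalling.

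Expression was given as TPM, a share of each library scaled by gene length that sums to 1000000 per library. The TPM worth of 1 read was taken from single-exon genes. With the GENCODE vM39 exon length of every gene, each library was estimated to hold between 41072868 and 62878743 assigned reads. These totals are uncertain and may be too high, since that length did not give whole reads for some genes, Cdkn2b among them. The table has 1 row for Cdkn2a, and the Ink4a and Arf transcripts cannot be told apart in it. C1galt1c1 itself stood between 10.9 and 19.0 TPM in the 4 KO libraries and between 37.0 and 54.2 TPM in the 4 WT libraries, lower in KO in each line. Unnamed identifiers held 12.5% of the TPM in the KO library of 6694c2 and 9.69% in that of 6419c5, against 0.713% to 1.33% in the other 6 libraries, and such RNA lowers the share left to every other gene. Of 7 markers of ductal epithelium, 7 reached 1 TPM in at least 4 libraries, against 1 of 5 acinar markers and 0 of 4 islet markers. The acinar genes Cpa1, Ptf1a and Amy2a2 and the islet hormones Ins1, Ins2 and Gcg were listed at 0 in all libraries, while the acinar Cela1 ranged over 4.59 to 44.4 TPM and the acinar Prss2 and the islet Chga reached 2.65 and 1.70 TPM. The summed level of the 3 immune markers was 7.66 to 28.1 TPM in KO and 5.53 to 14.2 TPM in WT libraries, and Cd68 was the 1 of them that reached 1 TPM in at least 4 libraries.

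In GRCm39, Mtap lies on the plus strand at chr4:89055359-89099319, Cdkn2a on the minus strand at chr4:89192708-89212890 and Cdkn2b on the minus strand at chr4:89223204-89229276. The gap between Mtap and Cdkn2a is 93.4 kb and that between Cdkn2a and Cdkn2b is 10.3 kb. The start regions of these 3 genes are shown because the level of the pair Cdkn2a and Cdkn2b moved together across the lines while that of Mtap did so less. The 300-base windows, from 250 bases before to 50 bases after the start, come from RefSeq on GRCm38.p6 and were placed on GRCm39 by exact match. They are chr4:89212807-89213106 for the upstream (Arf) start of Cdkn2a, chr4:89200380-89200679 for its downstream (Ink4a) start, chr4:89229220-89229519 for Cdkn2b, these 3 on the minus strand, and chr4:89055357-89055656 for Mtap on the plus strand. Capitals mark the GC box, searched as GGGCGG and its other-strand form CCGCCC.
Cdkn2a upstream start: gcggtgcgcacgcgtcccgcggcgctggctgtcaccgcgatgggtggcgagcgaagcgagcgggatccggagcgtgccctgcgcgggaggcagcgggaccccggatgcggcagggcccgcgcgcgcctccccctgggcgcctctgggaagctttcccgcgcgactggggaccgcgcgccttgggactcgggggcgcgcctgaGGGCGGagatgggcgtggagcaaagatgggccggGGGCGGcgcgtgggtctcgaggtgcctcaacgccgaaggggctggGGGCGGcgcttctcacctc
Cdkn2a downstream start: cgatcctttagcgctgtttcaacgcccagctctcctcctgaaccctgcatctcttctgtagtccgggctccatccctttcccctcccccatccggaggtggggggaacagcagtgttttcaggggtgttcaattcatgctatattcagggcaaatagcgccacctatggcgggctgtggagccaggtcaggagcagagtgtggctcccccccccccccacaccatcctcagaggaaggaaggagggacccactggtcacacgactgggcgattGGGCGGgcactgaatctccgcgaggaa
Cdkn2b start: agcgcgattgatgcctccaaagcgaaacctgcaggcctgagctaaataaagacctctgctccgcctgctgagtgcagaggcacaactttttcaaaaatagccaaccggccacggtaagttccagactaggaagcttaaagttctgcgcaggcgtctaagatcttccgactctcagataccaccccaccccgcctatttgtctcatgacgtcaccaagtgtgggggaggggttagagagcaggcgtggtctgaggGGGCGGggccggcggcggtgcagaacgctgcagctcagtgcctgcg
Mtap start: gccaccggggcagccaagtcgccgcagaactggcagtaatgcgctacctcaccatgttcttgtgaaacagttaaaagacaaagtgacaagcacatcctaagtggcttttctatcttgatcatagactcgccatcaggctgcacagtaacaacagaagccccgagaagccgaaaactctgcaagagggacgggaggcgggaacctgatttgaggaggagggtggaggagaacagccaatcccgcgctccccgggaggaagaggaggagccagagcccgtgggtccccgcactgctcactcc

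The upstream start of Cdkn2a held 3 GC boxes and 45 CpG dinucleotides, more CpG than 98.1% of the 32851 mouse promoters of the same length. Its downstream start held 1 GC box and 12 CpG, the Cdkn2b start 1 GC box and 18 CpG, and the Mtap start 0 GC boxes and 14 CpG. The median over all promoters was 7 CpG, and 35.7% of them held a GC box. The matches are a description of the letters and not of bound factors. DNA methylation and copy number were not measured in these libraries.

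Cdkn2a was at a few TPM in 6694c2 and among the most abundant mRNAs of the other 3 lines. It stood at 5.21 TPM in the KO and 5.76 TPM in the WT library of 6694c2. The KO and WT libraries held 536 and 520 TPM in 2838c3, 1507 and 1237 TPM in 6499c4, and 1088 and 1212 TPM in 6419c5. The 6694c2 libraries lay below all 6 others, and within each line KO and WT stayed on the same side of every other line. The 6694c2 mean of 5.49 TPM was 0.540% of the mean of the other 3 lines, 1017 TPM, or 185-fold lower. Among the 12900 genes with at least 1 TPM in at least 4 libraries, Cdkn2a ranked above 28.4% in KO and 25.8% in WT of 6694c2, and above 97.8% to 99.2% in the libraries of the other lines. Because the libraries are bulk RNA, fewer cells with the transcript and less transcript per cell cannot be told apart.

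The low level in 6694c2 was not zero. With the exon length of GENCODE vM39, it came to 69 reads in KO and 89 reads in WT, with exact 95% Poisson intervals of 4.05 to 6.59 TPM and 4.63 to 7.09 TPM. The intervals overlap, which is no test of a difference, and KO against WT of this line was not tested. They cover counting error alone, and would be wider if both mates of a read pair were counted, which the labels do not tell.

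Cdkn2b, the Ink4b gene 10.3 kb away, was low in the same line. It stood at 1.52 TPM in KO and 2.12 TPM in WT of 6694c2. The KO and WT libraries held 260 and 196 TPM in 2838c3, 336 and 268 TPM in 6499c4, and 352 and 350 TPM in 6419c5. The 6694c2 libraries again lay below all others, with a mean of 1.82 TPM against 294 TPM in the other 3 lines, which is 0.621% or 161-fold lower. With the GENCODE vM39 exon length, the values of 6694c2 came to 46.9 reads in KO and 76.2 in WT. These are not whole numbers, so the length behind the TPM of Cdkn2b appears to differ. The true counts are not known and may be lower, and no counting interval is given. In 6694c2 Cdkn2b ranked above 11.6% of genes in KO and 11.9% in WT, against 93.2% to 97.0% in the other 3 lines.

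Cdkn2a stood above Cdkn2b in every library. In TPM, which are per length, the ratio of Cdkn2a to Cdkn2b was 3.42 in KO and 2.71 in WT of 6694c2. The KO and WT libraries had ratios of 2.07 and 2.65 in line 2838c3, ratios of 4.48 and 4.61 in line 6499c4, and ratios of 3.09 and 3.46 in line 6419c5. The 6694c2 ratios lay inside the range of the other libraries. Across all 8 libraries, Pearson's r between log2(TPM + 1) of both genes was 0.99, over libraries that come from only 4 lines and share each library's composition. This r largely restates the low level of both genes in 6694c2, and the set was chosen on that of Cdkn2a. Among the other lines the order differed, with 6419c5 above 6499c4 for Cdkn2b and below it for Cdkn2a.

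Mtap was lower in 6694c2 as well, to a smaller degree. Its KO and WT libraries held 62.3 and 86.4 TPM in 6694c2, 246 and 229 TPM in 2838c3, 113 and 138 TPM in 6499c4, and 139 and 121 TPM in 6419c5. The 6694c2 libraries were the lowest of the 8 and did not overlap with the others, but they remained well expressed, above 82.3% of genes in KO and 85.3% in WT. The mean of 74.3 TPM in 6694c2 was 45.2% of the 164 TPM in the other 3 lines, 2.21-fold lower. On the log2(TPM + 1) scale, 6694c2 minus the mean of the other lines was -7.18 for Cdkn2a, -6.68 for Cdkn2b and -1.09 for Mtap, so the low level reached Cdkn2b in nearly full size and Mtap in a much smaller one. Line 2838c3 had the highest Mtap level, 238 TPM on average, and without it the Mtap difference was -0.79.

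Set against all 12900 genes, 6694c2 minus the mean of the other lines was lower for 0 genes than for Cdkn2a, for 1 gene than for Cdkn2b and for 697 genes than for Mtap. In limma, 7.28% of genes were lower and 3.44% higher in 6694c2 than in the other 3 lines at an adjusted p under 0.05. These shares are background only, since the contrast was used in choosing the genes.

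The other annotated genes around Cdkn2a were tested for the same contrast, as they took no part in the choice. Of 75 annotated genes of the table within 2 Mb of Cdkn2a, 47 were at 0 in all libraries and 11 passed the minimum of 1 TPM in at least 4 libraries, 8 of them besides Cdkn2a, Cdkn2b and Mtap. In limma 1 of these 8 was lower and 1 higher in 6694c2, beside 7.28% and 3.44% of all genes. The lower one was Gm12610, a noncoding RNA that starts 159 bases from the upstream end of Cdkn2a, on the opposite strand, and runs across Cdkn2b in antisense. It was listed at 0 in KO and WT of 6694c2. With the GENCODE vM39 exon length, other libraries did not come to whole reads, such as 232.4 in WT of 6499c4. The length behind its TPM thus appears to differ, and how low a level the 0 stands for is not known. The KO and WT libraries held 0.404 and 0.556 TPM in 2838c3, 1.14 and 1.09 TPM in 6499c4, and 1.83 and 1.06 TPM in 6419c5. Gm12610 passed the minimum only through the lines where it was high, so its call is a description and no test. Its limma adjusted p of 0.045 was 0.051 with median-ratio scaling and 0.134 and 0.163 without 6499c4 and without 6419c5. Its log2 difference, -0.97, depends on the pseudocount at these levels. The design text calls the libraries stranded, but the labels do not tell whether counting used strand, and without it reads of Gm12610 and Cdkn2b cannot be told apart where they overlap.

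The higher one was Wincr1, a long noncoding RNA 190 kb from Cdkn2a on the far side of Mtap. Its KO and WT libraries held 58.7 and 70.4 TPM in 6694c2, 111 and 68.2 TPM in 2838c3, 29.5 and 22.5 TPM in 6499c4, and 20.4 and 11.4 TPM in 6419c5. The 6694c2 libraries overlapped with those of 2838c3 and lay above those of the other lines, with a log2 difference of 0.95 and a limma adjusted p of 0.047. The call ended without 6499c4 (limma adjusted p = 0.181) and without 6419c5 (0.396).

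The other 6 neighbours did not pass, among them all the protein-coding ones. Klhl9, a ubiquitin ligase adaptor, differed by -0.44 in 6694c2 (limma adjusted p = 0.198), Focad, which encodes focadhesin, by 0.05 (0.905), and Mllt3, a subunit of the super elongation complex, by 0.18 (0.669). The hairpin of Mir31 differed by -1.18 (limma adjusted p = 0.121), the snoRNA gene Gm26490 by -0.83 (0.220) and the noncoding RNA Gm12602 by 0.04 (0.945). Dmrta1, the next protein-coding gene beyond Cdkn2b at a distance of 338 kb, was at 0 in all libraries of 6694c2 and of 2838c3 and reached at most 0.211 TPM in the other lines. Within 5 Mb, 15 genes besides Cdkn2a, Cdkn2b and Mtap passed the minimum. The count was again 1 lower and 1 higher, the same Gm12610, with the limit given above, and Wincr1.

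Trp53 mRNA varied little between the 4 lines. Its KO and WT libraries held 122 and 94.5 TPM in 6694c2, 85.3 and 150 TPM in 2838c3, 121 and 126 TPM in 6499c4, and 120 and 136 TPM in 6419c5. The line means, from 108 TPM in 6694c2 to 128 TPM in 6419c5, overlapped in their KO and WT values. The range of the line means was 0.25 on the log2 scale, and 12301 of 12900 genes had a larger one. The largest gap of Trp53 lay inside 1 line, 2838c3, where KO stood at 57.0% of WT. The gene lies at chr11:69469669-69482701. A level of mRNA does not tell whether the allele is mutant.

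Smad4 was present in all lines. The KO and WT libraries held 104 and 90.4 TPM in 6694c2, 112 and 79.6 TPM in 2838c3, 56.4 and 66.9 TPM in 6499c4, and 62.3 and 70.6 TPM in 6419c5. Values of 6694c2 and 2838c3 overlapped with each other and lay above those of 6499c4 and 6419c5, which also overlapped. The 6694c2 mean of 97.4 TPM was 130% of the 74.7 TPM in the other 3 lines. The gene lies on chromosome 18 at 73769343 to 73836915.

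Rb1 was highest in 6694c2, the line with the lowest Cdkn2a. Its KO and WT libraries held 16.5 and 18.5 TPM in 6694c2, 13.9 and 8.89 TPM in 2838c3, 4.94 and 6.32 TPM in 6499c4, and 5.02 and 4.28 TPM in 6419c5. The 6694c2 libraries were the highest of the 8, those of 2838c3 came next without overlap, and those of 6499c4 and 6419c5 overlapped at the low end. The 6694c2 mean of 17.5 TPM was 242% of the 7.22 TPM in the other 3 lines, a log2 difference of 1.27, which became 1.60 without 2838c3. Over the 8 libraries Pearson's r of log2(TPM + 1) was -0.85 for Rb1 with Cdkn2a and 0.88 for Rb1 with Smad4, values over only 4 lines that share each library's composition. The r with Cdkn2a includes 6694c2, whose low Cdkn2a led to the choice of the set, so it is a description and no test. The gene lies at chr14:73421113-73563507.

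All 4 lines could be ordered without overlap between neighbours for Cdkn2a and Cdkn2b, and for none of the other 4 genes. From low to high, the Cdkn2a means were 5.49 TPM in 6694c2, 528 in 2838c3, 1150 in 6419c5 and 1372 in 6499c4. The Cdkn2b means were 1.82 TPM in 6694c2, 228 in 2838c3, 302 in 6499c4 and 351 in 6419c5. For Mtap 6499c4 and 6419c5 overlapped, with means of 126 and 130 TPM. The range of the line means on the log2 scale was 7.72 for Cdkn2a, 6.97 for Cdkn2b, 1.71 for Rb1, 1.68 for Mtap and 0.65 for Smad4, beside a median of 0.75 over all genes. In limma 16.9% of all genes differed between lines at an adjusted p under 0.05.

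KO and WT of a line lay close together for Cdkn2a. Its largest gap within a line was 0.28 on the log2 scale, and 8.41% of genes had a smaller one. The largest gap was 0.40 for Cdkn2b, 0.47 for Mtap, 0.49 for Smad4, 0.59 for Rb1 and 0.80 for Trp53, against a median of 0.62 over all genes. Trp53 was the 1 gene of the 6 whose gap between KO and WT exceeded its range between lines.

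No difference between KO and WT was detectable in any of the 6 genes. The mean levels in KO and WT libraries (SD, n = 4 each) were 784 ± 654 and 744 ± 594 TPM for Cdkn2a, 237 ± 162 and 204 ± 149 TPM for Cdkn2b, and 140.2 ± 77.7 and 144 ± 60.6 TPM for Mtap. They were 112 ± 17.8 and 127 ± 23.5 TPM for Trp53, 83.8 ± 28.5 and 76.9 ± 10.5 TPM for Smad4, and 10.1 ± 6.0 and 9.51 ± 6.30 TPM for Rb1. The SD of the first 3 genes is mostly the difference between lines, and the fit therefore compared KO with WT inside each line. The median KO minus WT difference of all genes was -0.15 on the log2 scale, which enters every unscaled difference. The limma p values below test the unscaled differences. A difference called relative has this median taken off, and no p belongs to it other than that of the exact test.

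Cdkn2a had an unscaled KO minus WT difference of 0.01 with an SE of 0.14 (limma adjusted p = 0.982), Cdkn2b of 0.11 with an SE of 0.16 (0.83) and Mtap of -0.11 with an SE of 0.16 (0.813). The relative differences were 0.16 for Cdkn2a (95% interval -0.18 to 0.50), 0.25 for Cdkn2b (-0.13 to 0.64) and 0.04 for Mtap (-0.35 to 0.42). KO was relatively higher in 3 of 4 lines for Cdkn2a and Cdkn2b and in 2 of 4 for Mtap. The intervals leave room for changes of that size in either direction, and a p above the threshold does not show that the levels were equal.

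Among the genes elsewhere in the genome, the unscaled difference was 0.07 with an SE of 0.17 for Smad4 (limma adjusted p = 0.897), 0.08 with an SE of 0.20 for Rb1 (0.898) and -0.17 with an SE of 0.20 for Trp53 (0.772). The relative differences were 0.22 for Smad4 (95% interval -0.18 to 0.61), 0.23 for Rb1 (-0.24 to 0.69) and -0.02 for Trp53 (-0.50 to 0.46). The lines differed for Trp53, with relative KO minus WT at 0.59 in 6694c2, -0.72 in 2838c3, 0.04 in 6499c4 and -0.03 in 6419c5. In 2838c3 Smad4 and Rb1 stood the other way, with KO at 141% and 156% of WT. The exact two-sided sign-flip test of the relative differences over the 4 lines gave p between 0.25 and 0.875 for the 6 genes. With 16 sign patterns it cannot reach 0.05, since the smallest p it can give is 2 of 16.

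The adjusted limma p values came from the fit of all 12900 genes, of which 0% passed at 0.05, while 8.81% had an unadjusted p under 0.05. The 6 genes were not among these 1137 genes, and their unadjusted limma p lay between 0.423 and 0.931.

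Genes that work with the 6 were described by 5 lists of 104 distinct genes, 99 of which passed the TPM minimum. Between 6694c2 and the other 3 lines, 10 of the 99 were lower and 0 higher in limma, beside 7.28% and 3.44% of all genes. Of the 10 lower genes, 0 passed without 6419c5, and 3 list genes passed as lower without 6499c4.

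The RB list holds the cyclins, kinases, inhibitors and E2F factors on which Ink4a, Ink4b and Rb1 act, and 4 of its 20 genes were lower in 6694c2 and 0 higher, beside 7.28% and 3.44% of all genes. They were the kinase gene Cdk4 at 152 TPM in 6694c2 against 261 TPM in the other lines (log2 difference -0.79, limma adjusted p = 0.034), the D-type cyclins Ccnd2 at 75.9 against 156 TPM (-1.02, 0.017) and Ccnd3 at 14.3 against 32.7 TPM (-1.14, 0.012), and Cdk2, the kinase of the E-type cyclins and no target of the Ink4 proteins, at 16.7 against 29.5 TPM (-0.80, 0.045). These 4 were named after their values were seen. With median-ratio scaling 2 of the 4 passed, Ccnd2 and Ccnd3. The list median was -0.25, beside -0.12 for all genes. Ccnd1, the most abundant D-type cyclin here, stood at 399 TPM in 6694c2 and 331 TPM in the other lines (limma adjusted p = 0.334) and Cdk6 at 15.2 and 21.4 TPM (0.299), both named after their values were seen. The sister inhibitor Cdkn2c, which encodes Ink4c, was at 21.9 TPM in 6694c2 and 28.6 TPM in the other lines (limma adjusted p = 0.324).

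Between KO and WT, 0 of the 20 RB genes passed after adjustment, and 6 had an unadjusted limma p under 0.05, 1 higher and 5 lower, beside 8.81% of all genes. The list median was -0.14 relative to all genes. Cdkn1a, which encodes the p53-induced inhibitor p21, had KO and WT levels of 80.8 and 88.1 TPM in 6694c2, 212 and 44.0 TPM in 2838c3, 32.1 and 10.5 TPM in 6499c4, and 42.2 and 15.2 TPM in 6419c5. KO was above WT in 3 lines in TPM and in 4 of 4 relative to the median, and the unscaled difference was 1.26 (limma adjusted p = 0.556). Cdkn2c was lower in KO in 4 of 4 lines, with KO and WT at 13.5 and 30.2 TPM in 6694c2 and an unscaled difference of -0.69 (limma adjusted p = 0.556). The cyclin Ccne2 had an unscaled difference of -1.03 (limma adjusted p = 0.556) and the inhibitor Cdkn1c of -0.51 (0.578).

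The p53 list holds the regulators and targets of p53, and 25 of its 26 genes were tested. In 6694c2 3 were lower and 0 higher, beside 7.28% and 3.44% of all genes, and the list median was 0.07. The antiproliferative gene Btg2 averaged 13.9 TPM in 6694c2 and 48.1 TPM in the other lines (log2 difference -1.49, limma adjusted p = 0.017), the sestrin Sesn1 4.51 and 15.1 TPM (-1.49, 0.027) and the mTORC1 inhibitor Ddit4l 2.98 and 15.2 TPM (-1.28, 0.036). Btg2 in 2838c3, at 22.7 TPM in KO and 15.2 TPM in WT, overlapped with 6694c2, at 11.6 TPM in KO and 16.2 TPM in WT. Ddit4l was lower still in 6499c4, at 0.227 TPM in KO and 0.543 TPM in WT. Sesn1 was named after its values were seen. Mdm2, the ligase that Arf inhibits, was at 17.7 TPM in 6694c2 and 26.2 TPM in the other lines (limma adjusted p = 0.129), also named after its values were seen. Between KO and WT 0 of the 25 passed after adjustment and 4 had an unadjusted limma p under 0.05, 3 higher and 1 lower, beside 8.81% of all genes. Sesn2, a stress-inducible sestrin, had an unscaled difference of 0.77 (limma adjusted p = 0.556) and Ddit4l of -1.15 (0.542), each on the same side of the median in 4 of 4 lines. The relative list median was 0.16.

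In the SMAD and TGF-beta list, the partners of Smad4, 18 of 21 genes were tested, and 1 was lower and 0 higher in 6694c2, beside 7.28% and 3.44% of all genes. It was the ligand Tgfb3, at 2.41 TPM in 6694c2 and 18.8 TPM in the other lines (log2 difference -2.44, limma adjusted p = 0.013). The receptor Tgfbr1 stood at 27.3 and 21.6 TPM (limma adjusted p = 0.356) and the receptor-activated Smad2 at 56.0 and 53.1 TPM (0.750). Between KO and WT 0 passed after adjustment, and 2 had an unadjusted limma p under 0.05, beside 8.81% of all genes. They were the inhibitory Smad6, with an unscaled difference of -0.52 (limma adjusted p = 0.556), and the receptor Tgfbr2, with one of -0.48 (0.556). With the median taken off, the 95% interval spans 0 for both, with relative differences of -0.37 and -0.34.

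The list of methionine salvage and polyamine synthesis, the pathway of Mtap, had 0 of 16 tested genes lower and 0 higher in 6694c2, beside 7.28% and 3.44% of all genes. Prmt5, the arginine methyltransferase that methylthioadenosine inhibits, was at 90.1 TPM in 6694c2 and 63.4 TPM in the other lines (limma adjusted p = 0.096), Odc1, which starts polyamine synthesis, at 302 and 177 TPM (0.218) and the aminotransferase Got1 at 192 and 125 TPM (0.081). Between KO and WT 0 passed after adjustment and 2 had an unadjusted limma p under 0.05, beside 8.81% of all genes. Mat2a, the methionine adenosyltransferase, was lower in KO in 4 of 4 lines, with an unscaled difference of -0.71 (limma adjusted p = 0.499) and KO and WT at 65.7 and 100.0 TPM in 6694c2. Amd1, the adenosylmethionine decarboxylase, was lower in 4 of 4 with an unscaled difference of -0.68 (limma adjusted p = 0.556), a value that is uncertain because the near-identical Amd2 can share its reads.

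Of 23 other drivers of pancreatic cancer, 2 were lower and 0 higher in 6694c2, beside 7.28% and 3.44% of all genes: the kinase gene Stk11 at 45.8 TPM against 92.1 TPM in the other lines (log2 difference -0.97, limma adjusted p = 0.018) and the chromatin remodeller Smarca4 at 68.8 against 136 TPM (-0.98, 0.018), the second named after its values were seen. Between KO and WT 0 of the 23 passed after adjustment and 3 had an unadjusted limma p under 0.05, beside 8.81% of all genes. Their unscaled differences were -0.83 for Brca1, -0.48 for Tgfbr2 and -0.39 for the chromatin remodeller Pbrm1 (limma adjusted p of 0.561, 0.556 and 0.561). The relative differences were -0.68, -0.34 and -0.24, with 95% intervals that span 0.

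The genes whose log2(TPM + 1) was most like that of Cdkn2a over the 8 libraries were Amdhd2, Cdkn2b, Cers6, Shtn1 and Slc38a1, with Pearson's r from 0.990 to 0.996. Apart from Cdkn2b they lie on chromosomes 17, 2, 19 and 15. Amdhd2, an enzyme of amino sugar breakdown, was at 0.519 TPM in KO and 0.362 TPM in WT of 6694c2 and between 40.2 and 95.2 TPM elsewhere. Slc38a1, a glutamine transporter, was at 0.432 TPM in KO and 0.443 TPM in WT of 6694c2 and between 11.5 and 19.1 TPM elsewhere. Amdhd2, Cers6 and Slc38a1 were under 1 TPM in KO and WT of 6694c2 and passed the minimum only through the other lines. The ranking rests on the low Cdkn2a of 6694c2 by which the set was chosen, so it is a description and no test. These values come from 8 libraries of 4 lines, and 939 genes were lower in 6694c2 in limma. The nearest patterns to Cdkn2b were Cdkn2a, Slc38a1 and Shtn1 (r of 0.994, 0.994 and 0.992). For the other 4 genes they were Pcid2, Wdr70 and Nfya for Mtap (r of 0.974, 0.967 and 0.961), Aven, Mns1 and Neurl3 for Trp53 (0.960, 0.951 and 0.947), Ralgapb and Tmem243 for Smad4 (0.984 and 0.980), and Togaram1, Mipol1 and Ppp3cc for Rb1 (0.980, 0.978 and 0.978).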

How the data were processed

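RNA of 8 cultures was captured on oligo(dT) beads, made into libraries with an NEBNext kit and sequenced as paired ends, per the labels' protocols, which name a NovaSeq where the design text names a HiSeq. Spike-in RNA was added per the protocols and not used here. Values are TPM, as deposited by the authors, in 1 table. The submitters' processing notes name cutadapt 5.1, STAR 2.7.11b, featureCounts 2.1.1, DESeq2 2.11.40.8 and the mm39 build; the gene lengths, annotation and strand setting are not given in sources used here. GENCODE vM39 on GRCm39 named 45505 of 49315 identifiers, left 3810 unnamed and supplied positions.

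Whole reads were estimated from the TPM step of single-exon genes (95.1% to 95.6% of low values within 0.1 of a whole read). For other genes they also rest on GENCODE vM39 exon lengths, which did not give whole reads for Cdkn2b and Gm12610. The estimated totals lie above the read pairs the design text states and may be too high. Genes with at least 1 TPM in at least 4 libraries were kept (12900). The model of limma 3.58.1 (R 4.3.3) took log2(TPM + 1), a scale that understates the change of low genes, with genotype and line as terms; p-values were Benjamini-Hochberg adjusted over all genes at 0.05. Those of KO versus WT measure the spread of that difference between 4 lines. Those between lines take the same residual as error, so the KO and WT libraries of a line stand in as its replicates. The spread among the other lines does not enter the error of a contrast of 1 line. No repeat culture of a line is described. KO and WT of a line are paired because they come from the same line: their deviations from the group means correlated, with r between 0.42 (2838c3) and 0.79 (6499c4). The step was tested on simulated data. The 6 genes, the gene lists and tests were chosen with earlier results of these data known. Named beside the 6 genes were the 3 genes of smallest p and the 3 of largest range of each list, the genes within 2 Mb of Cdkn2a that passed the minimum, and the genes of most like pattern; predicted genes were skipped in the last. Some genes that this rule names are not reported here. Alternatives were another pseudocount (0.1), no TPM minimum or one of 5, median-ratio scaling, quantile normalization, structural RNA removed, no replicate block, windows of 1 and 5 Mb, and each line left out. Python 3.11.15 and matplotlib 3.10.9 drew the figures.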

Additional observations from a re-analysis of the deposited data

Results flagged for a closer look

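In groups of 4 libraries, 12 in all, the highest or lowest library was set against Dixon's 95% critical value for 4 samples, on log2(TPM + 1); chance passes it in about 1 of 20 groups. Cdkn2a in WT of 6694c2 stood apart as the lowest, with a gap of 0.834 of the range of the WT libraries. Cdkn2b in 6694c2 stood apart as the lowest in both genotypes, with 0.939 of the range in KO and 0.878 in WT. These 3 restate the low level by which the genes were chosen. Trp53 in KO of 2838c3, at 85.3 TPM against 120 to 122 TPM in the other KO libraries, stood apart with 0.948 of the range. The Trp53 value has no second library of that culture to set beside it.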

How the results depend on the processing

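Of the 6 genes, 0 differed between KO and WT after adjustment in any of 11 alternatives, and the count over all genes was 0 in each. Their unscaled KO minus WT difference changed sign for Mtap (0.045 with median-ratio scaling, 0.035 with quantile normalization, 0.0057 without 6694c2), for Cdkn2a without 6499c4 (-0.078), and without 2838c3 for Trp53 (0.039), Smad4 (-0.073) and Rb1 (-0.090). The 6694c2 difference of Cdkn2a was -7.40 with a pseudocount of 0.1, -7.06 with median-ratio scaling, -7.04 with quantile normalization and -7.60 to -6.91 with a line left out; that of Cdkn2b was -7.24 with a pseudocount of 0.1. Without 2838c3 it was -0.79 for Mtap and 1.60 for Rb1. Genes with an unadjusted limma p under 0.05 numbered 646 with median-ratio scaling, 655 with quantile normalization, 745 with structural RNA removed and 720 to 1641 with a line left out, against 1137. Without the replicate block that pairs KO with WT of a line they numbered 210, and the adjusted count was again 0. Genes that differed between lines numbered 871 to 3708 with a line left out (871 without 6499c4, 903 without 6419c5, 3708 without 2838c3). Genes lower in 6694c2 numbered 368 with no TPM minimum and 208 to 2174 with a line left out (302 without 6499c4, 208 without 6419c5), and higher ones 228 and 133 to 1249 (133 without 6499c4, 190 without 6419c5). Near Cdkn2a, 0 genes were lower with a minimum of 5 TPM, median-ratio scaling or quantile normalization and 0 to 2 with a line left out; 0 were higher with no minimum and 0 to 1 with a line left out. Of the list genes, 4 were lower with no minimum and 0 to 13 with a line left out (3 without 6499c4, 0 without 6419c5). Those higher numbered 2 with median-ratio scaling or quantile normalization and 0 to 11 with a line left out. Focad reached -0.00097 without 6419c5, and Gm12602 -0.19 without 6499c4 and -0.037 without 6419c5. The cause was not tested. Depth limits Cdkn2a and Cdkn2b in 6694c2 to at most 89 reads, and Gm12610 to fewer than 3.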
